A study of Homo sapiens with 12 samples.

Results

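Homologous recombination, Fanconi and other DNA repair genes were followed in uterine leiomyosarcoma (uLMS) cells treated with BET inhibitors. The genes were listed by name as DNA damage repair and checkpoint genes, with earlier results of these data known, and no threshold on their values was applied. They were 39 of the 22784 gene symbols with expression values, and all 39 passed the filter on low values. SK-UT-1, an established human uLMS cell line, was grown for 48 h with vehicle (VEH, DMSO), JQ1 or I-BET 762, each inhibitor at 5 µM, before its RNA was sequenced. The values covered 3 VEH libraries (replicates 13, 14 and 15), 4 JQ1 libraries (17 to 20) and 3 I-BET 762 libraries (21 to 23). All libraries came from 1 cell line, and no label says whether they were separate cultures, so p-values measure the spread between these libraries, which may be technical. VEH replicate 16 and I-BET 762 replicate 24 were not analysed here.

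Homologous recombination repairs a broken chromosome from the intact sister copy: BRCA1, BARD1 and PALB2 bring in BRCA2, which loads the recombinase filament, and paralogs of the recombinase support that filament. The Fanconi pathway unhooks crosslinks between DNA strands. Its core complex adds ubiquitin to FANCD2 and FANCI, and SLX4 then brings nucleases to the lesion. JQ1 and I-BET 762 both occupy the acetyl-lysine pocket of BET proteins, which bind acetylated chromatin at active genes. JQ1 is a thienotriazolodiazepine carrying a tert-butyl ester, and I-BET 762 is a benzodiazepine-based compound carrying an ethylamide.

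Reads on genes ranged from 35564586 to 39658989 per library, and a count of 0 allows up to 3 reads, or 2.73 to 3.30 normalized counts, for counting error only. The smooth muscle markers ACTA2 (6899 to 7326 normalized counts) and CALD1 (9017 to 9738) were high in VEH libraries, whereas MYOCD and ACTG2 had at most 2 reads in any library. The summed level of the 9 measured smooth muscle markers was 20502 to 21137 in VEH, 10662 to 11270 in JQ1 and 11822 to 12374 in I-BET 762 libraries. Of these markers SMTN did not fall, with means of 2324 in VEH, 2644 in JQ1 and 2657 in I-BET 762 libraries and overlapping ranges. The summed level of 6 epithelial markers was 1231 to 1290 in VEH, 517 to 612 in JQ1 and 507 to 547 in I-BET 762 libraries. The part of these shifts in the results was not tested. Of the leukocyte markers, PTPRC had at most 1 read and CD14 had up to 39 reads (23.7 to 36.1 normalized counts in VEH, 28.6 to 37.0 in JQ1 and 17.7 to 22.1 in I-BET 762 libraries), and each of 4 endothelial markers had at most 4 reads. Replicate JQ1 18 stood apart: 25 of the 39 repair genes were highest there among the 4 JQ1 libraries, with a median excess of 0.12 on the log2 scale over the mean of the other 3, so results that rest on it are also given without it. The share of all genes highest in JQ1 18 was not counted. Over all genes, its total of normalized counts was also the largest of the 4 JQ1 libraries (4.18e+07, against 3.92e+07 to 3.97e+07).

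The repair genes split in direction. With JQ1, 14 of 39 rose and 16 fell at a Benjamini-Hochberg adjusted p under 0.05 in limma, and 9 did not pass. Over all 14839 genes tested, 36% rose and 35.6% fell, so neither share of the repair genes stood far from the background. With I-BET 762, 14 rose, 14 fell and 11 did not pass, beside 29.9% up and 31.3% down over all genes. The median log2 difference of the 39 genes was -0.03 with JQ1 and 0.02 with I-BET 762, and that of all genes tested was 0.01 and -0.0006. Both comparisons share the VEH libraries. Scaling the libraries to equal totals moved the median of all genes to -0.18 with JQ1, and the JQ1 split of the repair genes became 7 up and 23 down. Under that scaling 3537 of the 14839 genes tested rose and 6904 fell with JQ1.

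Few of the changes were large. Differentially expressed genes (DEGs) were those that also passed 1.5-fold. With JQ1, 1 repair gene was a DEG upward (SLX4) and 3 downward (RAD51D, FANCD2 and FANCF), where 13.3% and 22.8% of all genes were. With I-BET 762 the DEGs were again SLX4 upward and RAD51D, FANCD2 and FANCF downward, where 8.96% and 17.9% of all genes were. A mean normalized count of at least 100 was reached by 38 of the repair genes. Of these, 1 was a DEG upward and 2 downward with each inhibitor. Of the 11072 genes that reached it, 1445 were DEGs upward and 1914 downward with JQ1, and 891 and 1447 with I-BET 762. Without JQ1 18, MRE11 (-0.62) and PALB2 (-0.59) also passed 1.5-fold with JQ1, which made 5 downward. With equal totals SLX4 was at 0.57 with JQ1 and was no DEG. Under that scaling 8 repair genes were DEGs downward with JQ1, where 4217 of all 14839 genes were.

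**Figure D1:**
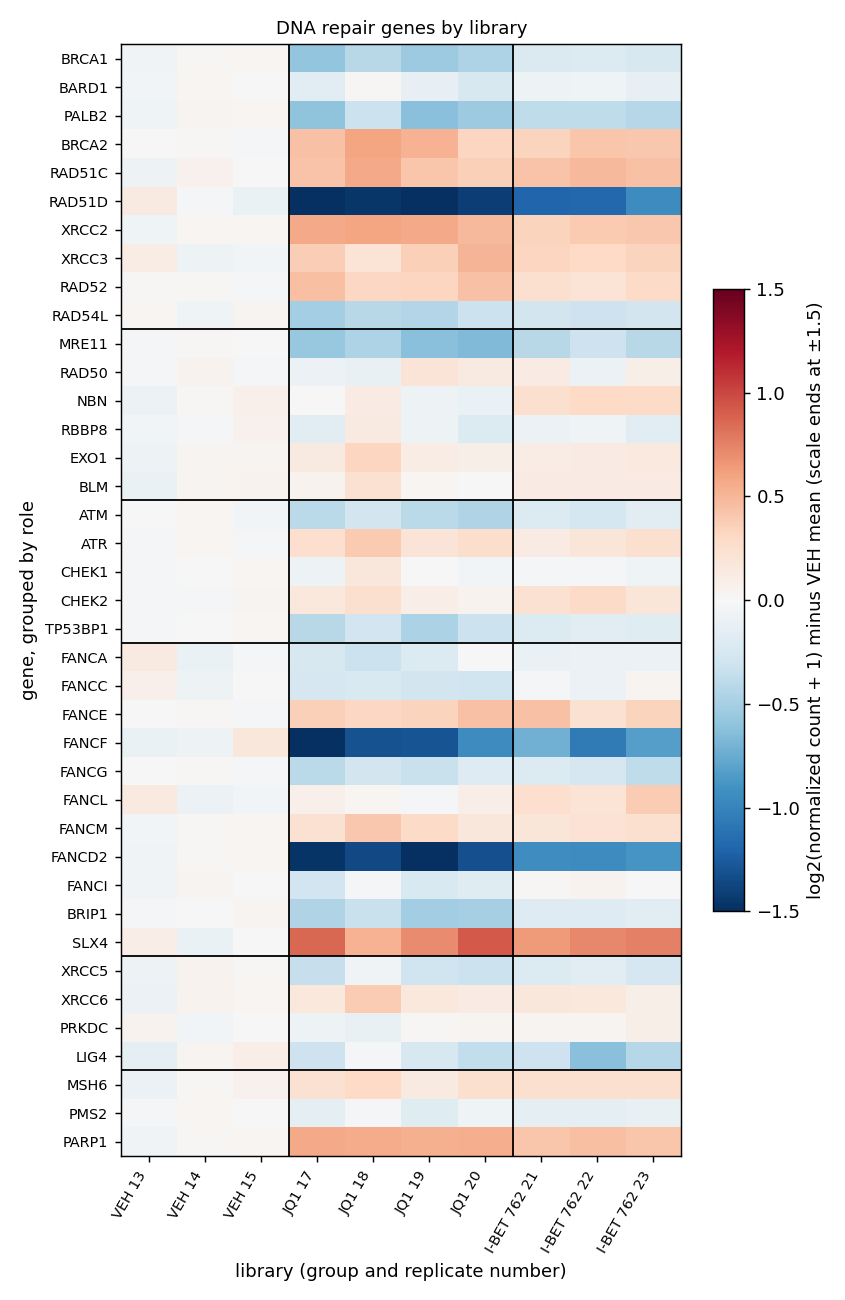
Each cell is the log2(normalized count + 1) of 1 gene (rows, grouped by role) in 1 library (columns), minus the VEH mean of that gene, with blue lower and red higher. RAD51D, FANCF and FANCD2 were blue and SLX4 red in all 7 inhibitor libraries, and the JQ1 18 column is redder than its neighbours for genes such as EXO1, XRCC5 and XRCC6.

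The promoters of those 4 genes are shown as the 250 bases before the RefSeq transcription start (GRCh38.p14, 5′ to 3′ on the gene's strand), because these are the genes with the largest changes. Capitals mark a match to CCAAT or to the ETS site CCGGAAGT on either strand.
RAD51D (chr17:35119759-35120008, minus strand): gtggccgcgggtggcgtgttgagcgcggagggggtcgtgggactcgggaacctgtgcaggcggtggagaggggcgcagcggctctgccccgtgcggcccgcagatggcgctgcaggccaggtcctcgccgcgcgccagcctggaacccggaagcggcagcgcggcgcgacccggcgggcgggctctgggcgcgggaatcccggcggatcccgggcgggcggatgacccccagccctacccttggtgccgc
FANCD2 (chr3:10026187-10026436, plus strand): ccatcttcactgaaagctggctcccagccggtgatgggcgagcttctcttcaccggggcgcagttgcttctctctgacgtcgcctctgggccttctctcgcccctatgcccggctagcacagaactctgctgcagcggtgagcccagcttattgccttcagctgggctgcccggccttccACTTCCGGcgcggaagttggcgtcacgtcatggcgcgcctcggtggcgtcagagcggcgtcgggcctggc
FANCF (chr11:22625824-22626073, minus strand): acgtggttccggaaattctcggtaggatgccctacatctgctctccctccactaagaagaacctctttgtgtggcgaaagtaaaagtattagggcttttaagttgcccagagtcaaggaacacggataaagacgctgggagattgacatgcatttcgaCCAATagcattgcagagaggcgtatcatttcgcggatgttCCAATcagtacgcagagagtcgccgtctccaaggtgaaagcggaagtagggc
SLX4 (chr16:3611607-3611856, minus strand): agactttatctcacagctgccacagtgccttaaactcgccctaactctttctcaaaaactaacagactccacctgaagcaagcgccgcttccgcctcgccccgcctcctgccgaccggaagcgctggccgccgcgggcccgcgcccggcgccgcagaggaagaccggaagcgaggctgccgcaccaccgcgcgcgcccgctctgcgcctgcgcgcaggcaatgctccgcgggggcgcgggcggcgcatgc
The RAD51D and SLX4 sequences were 78% and 70% G or C, with 35 and 34 CpG dinucleotides, and the FANCF sequence was 49.2% G or C with 14. FANCF held CCAAT at 92 to 88 and at 52 to 48 bases before its RefSeq start. FANCD2 held the ETS site on the opposite strand at 70 to 63 bases before its RefSeq start. Neither motif occurred in the printed windows of RAD51D or SLX4. In the Gencode annotation 2 of these genes start elsewhere than in RefSeq. The RAD51D window lies inside the Gencode gene, which starts at 35121522 on the minus strand. The FANCD2 window runs past the Gencode start at 10026370. These 2 windows are thus not wholly upstream in Gencode.

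In windows of 300 bases that also run past the start, 35 of the 39 repair genes had a RefSeq promoter sequence. NBN, FANCI, XRCC5 and PRKDC had none in the table used. The E2F forms TTTCCCGC, TTTCGCGC, TTTGCCGC and TTTGGCGC, searched on both strands, occurred in 8 of the 35 (22.9%), against 5.3% of 11244 promoters of tested genes and 3.33% of all 27305 promoters. These 8 were EXO1, MSH6, FANCD2, PMS2, XRCC2, FANCC, FANCA and XRCC6, and with JQ1 4 of them rose (EXO1, MSH6, XRCC2 and XRCC6), 3 fell and PMS2 did not pass. The FANCD2 match lies after the start and is not printed. The ETS site occurred in 6 of the 35 (17.1%, against 8.56% of tested genes), CCAAT in 16 (45.7%, against 36.5%) and the CHR element TTTGAA in 3 (8.57%, against 9.61%).

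RAD51D, a recombinase paralog that assists the recombinase filament, showed the largest fall of the 39 genes. Its normalized counts were 583, 521 and 496 in VEH 13 to 15, 186, 193, 167 and 199 in JQ1 17 to 20, and 233, 236 and 277 in I-BET 762 21 to 23. All VEH libraries lay above all inhibitor libraries, and all JQ1 libraries lay below all I-BET 762 libraries. The log2 difference was -1.51 with JQ1 (SE 0.10, limma adjusted p = 1.2e-09) and -1.10 with I-BET 762 (SE 0.10, limma adjusted p = 2.3e-07). The gene (ENSG00000185379, chr17:35092221-35121522, minus strand, hg38) shares 8.89% of its exon bases with 2 other genes on the same strand (ENSG00000267618 and Vault), so part of its reads could belong to them.

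FANCD2, the ubiquitinated switch of the Fanconi pathway, fell almost as far and from a higher level. Its normalized counts were 3952, 4145 and 4158 in the VEH libraries, 1474, 1592, 1443 and 1635 with JQ1, and 2142, 2127 and 2215 with I-BET 762. The 3 groups did not overlap, with JQ1 lowest. The log2 difference was -1.41 with JQ1 (SE 0.05, limma adjusted p = 2.1e-12) and -0.92 with I-BET 762 (SE 0.06, limma adjusted p = 1.8e-09). FANCD2 (ENSG00000144554, chr3:10026370-10101932, plus strand) has an exact copy elsewhere on chromosome 3 for 1.5% of its 75-base exon windows. FANCI, its partner in the ubiquitinated pair, changed far less: from 9334 ± 291 (SD, n = 3) in VEH to 8267 ± 700 (n = 4) with JQ1 (-0.18, limma adjusted p = 0.011), and it had 9489 ± 186 (n = 3) with I-BET 762 (0.02, limma adjusted p = 0.75). The JQ1 and VEH ranges of FANCI overlapped, and the call was lost without VEH 14 (limma adjusted p = 0.0511).

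FANCF, an adaptor of the Fanconi core complex with a single exon of 3291 bases (ENSG00000183161, chr11:22622533-22625823, minus strand), was among the 3 lowest repair genes per length. Its normalized counts were 133, 134 and 160 with VEH, 48, 57, 57 and 73 with JQ1, and 86, 67 and 80 with I-BET 762. Every inhibitor library lay below every VEH library, and the ranges of the inhibitors overlapped. It fell with both (log2 difference -1.27 with JQ1, SE 0.16, limma adjusted p = 2.9e-06, and -0.87 with I-BET 762, SE 0.17, limma adjusted p = 0.00039).

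SLX4, the scaffold that gathers structure-specific nucleases, was the only 1 of the 39 to rise by more than 1.5-fold with either inhibitor at the scaling as deposited. Its normalized counts were 803, 699 and 749 with VEH, 1357, 1074, 1229 and 1418 with JQ1, and 1170, 1237 and 1268 with I-BET 762. Every inhibitor library lay above every VEH library, and JQ1 18 was the lowest of the JQ1 group. SLX4 (ENSG00000188827, chr16:3581181-3611606, minus strand) rose by 0.75 with JQ1 (SE 0.08, limma adjusted p = 6.9e-07) and by 0.71 with I-BET 762 (SE 0.09, limma adjusted p = 5e-06), and without JQ1 18 the JQ1 difference was 0.83.

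**Figure D2:**
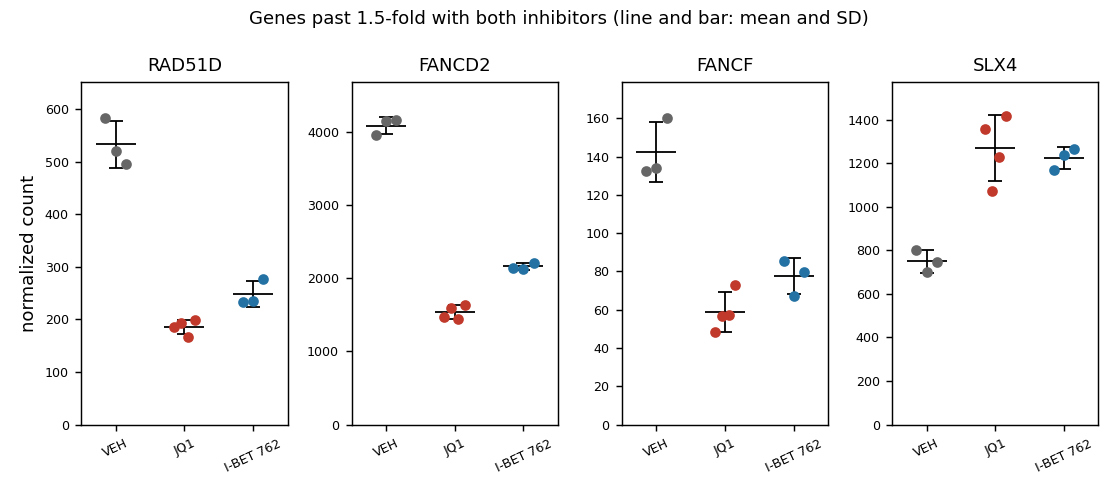
Normalized counts (linear axes from 0) of the 4 DEGs, 1 point per library, with the mean and SD of each group. RAD51D, FANCD2 and FANCF lay below the VEH libraries in all 7 inhibitor libraries, and SLX4 lay above them.

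Genes of the homologous recombination core moved in both directions within the same complexes. Of its 10 genes, 5 rose, 4 fell and 1 did not pass, with JQ1 and with I-BET 762 alike in number. Over all genes tested, 36% rose and 35.6% fell with JQ1, and 29.9% rose and 31.3% fell with I-BET 762. Calls in both directions were thus common over all genes too. BRCA1, the ubiquitin ligase that promotes end resection, went from 4348 ± 135 (n = 3) to 3073 ± 177 (n = 4) with JQ1 (-0.50, limma adjusted p = 2e-07) and 3725 ± 37.5 (n = 3) with I-BET 762 (-0.22, limma adjusted p = 0.002). Its obligate partner BARD1 did not pass (-0.13 and -0.09), although without JQ1 18 the JQ1 difference was -0.18 (limma adjusted p = 0.00145). PALB2, the bridge between BRCA1 and BRCA2, fell with JQ1 (-0.52) and with I-BET 762 (-0.40).

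BRCA2, which PALB2 carries to the break, moved the other way. It rose from 2017 ± 33.4 (n = 3) to 2797 ± 223 (n = 4) with JQ1 (0.47, limma adjusted p = 2.7e-06) and 2627 ± 81.4 (n = 3) with I-BET 762 (0.38, limma adjusted p = 7.5e-05). All 4 JQ1 libraries (2515 to 3031) and all 3 I-BET 762 libraries (2534 to 2685) lay above the VEH libraries (1979 to 2042). The recombinase paralogs RAD51C, XRCC2 and XRCC3 rose while RAD51D fell: RAD51C by 0.44 with JQ1 and 0.45 with I-BET 762, XRCC2 by 0.55 and 0.38, and XRCC3 by 0.36 and 0.31. RAD51D and XRCC2 act in the same paralog complex, and their differences with JQ1 lay at opposite ends of the 10 genes. RAD52, a single-strand annealing protein, rose by 0.38 and 0.24, and RAD54L, the motor that drives strand exchange, fell (-0.42 and -0.29). Of these, XRCC3 shares 76.7% of its exon bases with KLC1 on the opposite strand and RAD54L 19.9% with LRRC41, and whether the counting used the strand is not given in the sources used here. The XRCC3 rise with JQ1 did not pass with equal totals (0.18, limma adjusted p = 0.0598), nor did that of RAD52 with I-BET 762 (0.15, limma adjusted p = 0.0814).

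**Figure D3:**
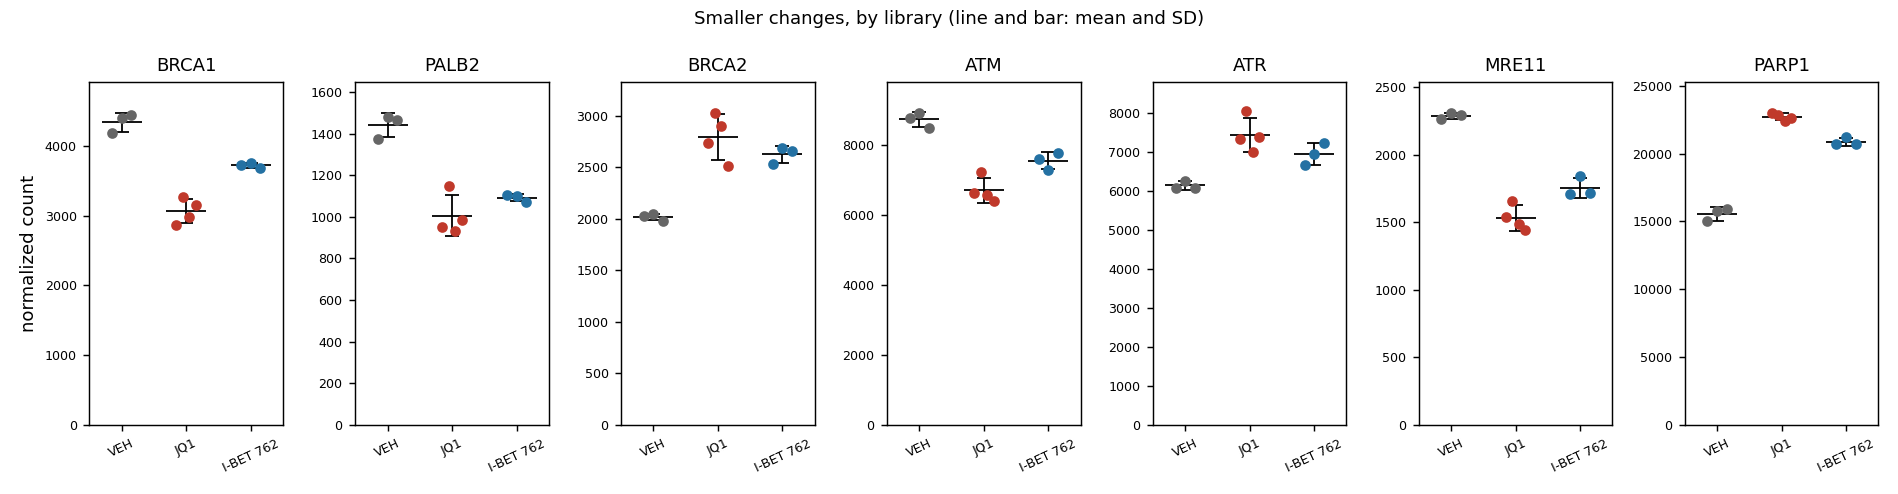
Normalized counts (linear axes from 0) of 7 genes past the test but under 1.5-fold, 1 point per library, with the mean and SD of each group. BRCA1, PALB2, ATM and MRE11 were lower and BRCA2, ATR and PARP1 higher in all 7 inhibitor libraries than in any VEH library.

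Of the 6 genes of end resection and resolution, 1 rose, 1 fell and 4 did not pass with each inhibitor. Beside them, 36% of all genes tested rose and 35.6% fell with JQ1, and 29.9% and 31.3% with I-BET 762. MRE11, the nuclease of the MRE11-RAD50-NBN break sensor, fell with both, going from 2286 ± 22 (n = 3) to 1531 ± 93.3 (n = 4) with JQ1 (-0.58, limma adjusted p = 1.1e-07, just under 1.5-fold) and 1755 ± 73.5 (n = 3) with I-BET 762 (-0.38, limma adjusted p = 3.9e-05). RAD50, the ATPase of that sensor, was the lowest repair gene per length, with 218 to 269 normalized counts over all libraries and differences of 0.03 and 0.04. It shares 76.9% of its exon bases with another gene on the same strand, and the part of that overlap in its low count was not tested. NBN, the third subunit, rose by 0.27 with I-BET 762 (limma adjusted p = 0.00097) and was at -0.01 with JQ1. The 3 subunits thus gave a fall, no call and, with I-BET 762, a rise.

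EXO1, a resection nuclease, rose by 0.16 with JQ1 (limma adjusted p = 0.017), and was at 0.13 with I-BET 762. The EXO1 call was lost without VEH 13 (0.12, limma adjusted p = 0.0935), and its sign turned with equal totals (-0.02). RBBP8, which starts resection with MRE11, was at -0.08 with JQ1 and -0.10 with I-BET 762, and BLM, the helicase of junction dissolution, was at 0.07 and 0.12. Neither passed with the 10 libraries. Without JQ1 18, RBBP8 passed with JQ1 (-0.15, limma adjusted p = 0.0149), and with I-BET 762 BLM (limma adjusted p = 0.0233) and EXO1 (limma adjusted p = 0.0151) passed. With equal totals BLM turned to -0.11 with JQ1.

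The damage kinases moved apart. ATM, the kinase recruited to double-strand breaks, went from 8723 ± 219 (n = 3) to 6704 ± 359 (n = 4) with JQ1 (-0.38, limma adjusted p = 3.3e-06) and 7549 ± 244 (n = 3) with I-BET 762 (-0.21, limma adjusted p = 0.0026). ATR, the kinase of stalled forks, went from 6139 ± 108 (n = 3) to 7437 ± 441 (n = 4) with JQ1 (0.27, limma adjusted p = 0.00015) and 6951 ± 282 (n = 3) with I-BET 762 (0.18, limma adjusted p = 0.0096). Every inhibitor library lay below the VEH range for ATM and above it for ATR, but the ATR calls did not hold with equal totals (0.09 with JQ1, limma adjusted p = 0.0727, and 0.08 with I-BET 762, limma adjusted p = 0.132), and the I-BET 762 call was lost without I-BET 762 23 (limma adjusted p = 0.0529).

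TP53BP1, which shields ends from resection, fell with JQ1 (-0.38) and with I-BET 762 (-0.19), and 28.8% of its exon bases are shared with TUBGCP4 on the opposite strand. CHEK1, the effector kinase of ATR, was at 0.01 with JQ1 and -0.04 with I-BET 762 and passed with neither. Under equal totals CHEK1 was at -0.17 with JQ1 and passed (limma adjusted p = 0.00251). CHEK2, the effector kinase of ATM, rose by 0.23 with I-BET 762 (limma adjusted p = 0.0019) and by 0.14 with JQ1 (limma adjusted p = 0.027). The JQ1 rise of CHEK2 did not pass without VEH 13, VEH 14, JQ1 17 or JQ1 18 (limma adjusted p from 0.0501 to 0.08), and its sign turned with equal totals (-0.05).

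Besides FANCD2, FANCF, FANCI and SLX4, the Fanconi genes showed smaller changes in both directions. Of the 11 Fanconi genes, 3 rose, 7 fell and 1 did not pass with JQ1, and 4 rose, 4 fell and 3 did not pass with I-BET 762. Beside them, 36% of all genes tested rose and 35.6% fell with JQ1, and 29.9% and 31.3% with I-BET 762. Whether the Fanconi genes differed from that background was not tested. In the core complex, FANCE rose by 0.36 with JQ1 and by 0.34 with I-BET 762, and FANCG fell (-0.30 and -0.28). FANCC fell by 0.26 with JQ1 (limma adjusted p = 0.00059) and was at -0.03 with I-BET 762. FANCA fell by 0.19 with JQ1 (limma adjusted p = 0.024) with overlapping libraries, and that call was lost without VEH 13, JQ1 17 or JQ1 18 (limma adjusted p from 0.053 to 0.15). FANCA also shares 19.6% of its exon bases with ZNF276 on the opposite strand.

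FANCL, the ubiquitin ligase of the core complex, rose by 0.28 with I-BET 762 (limma adjusted p = 0.0014) and was at 0.05 with JQ1. FANCM, the translocase that anchors the core complex to DNA, rose by 0.27 and 0.22. BRIP1, the BRCA1-bound helicase, fell with JQ1 (-0.45, limma adjusted p = 5.8e-07) and with I-BET 762 (-0.18, limma adjusted p = 0.0086). With equal totals the FANCM rise with JQ1 did not pass (0.09, limma adjusted p = 0.0885).

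Of the end joining genes, the DNA-end clamp Ku split. XRCC5, the larger Ku subunit, fell with JQ1 (-0.25, limma adjusted p = 0.0025) and with I-BET 762 (-0.21, limma adjusted p = 0.018), and its partner XRCC6 rose by 0.20 with JQ1 (limma adjusted p = 0.0083) and was at 0.14 with I-BET 762. XRCC5 counts were 28620, 31240 and 30628 with VEH, 23726, 29131, 24518 and 24040 with JQ1, and 26174, 26854 and 25382 with I-BET 762. JQ1 18 was the highest JQ1 library for both subunits and reached the VEH range for XRCC5. Without it the JQ1 differences were -0.32 for XRCC5 and 0.15 for XRCC6, and the I-BET 762 difference of XRCC6 passed (limma adjusted p = 0.011). The XRCC6 call with JQ1 was lost without VEH 13 (limma adjusted p = 0.0511) and with equal totals (0.02), and the XRCC5 call with I-BET 762 without VEH 14, VEH 15 or I-BET 762 23 (limma adjusted p from 0.059 to 0.0717). Exact copies on chromosome X exist for 13.9% of the XRCC6 exon windows. Per kilobase of transcript the Ku genes were the 2 highest of the 39, at 14564 (XRCC6) and 8927 (XRCC5) normalized counts in VEH.

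PRKDC, the kinase that Ku recruits, was at -0.03 with JQ1 and 0.06 with I-BET 762 and passed with neither. LIG4, the ligase that seals the joined ends, fell with I-BET 762 (-0.46, limma adjusted p = 0.0016) and with JQ1 (-0.24, limma adjusted p = 0.044). The LIG4 call with JQ1 was lost without VEH 14, VEH 15, JQ1 17, JQ1 19, JQ1 20 or I-BET 762 23 (limma adjusted p from 0.056 to 0.167), and its JQ1 and VEH libraries overlapped.

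PARP1, the sensor of single-strand breaks that builds poly(ADP-ribose) chains, rose in every inhibitor library. Its normalized counts were 14988 to 15891 with VEH, 22423 to 23020 with JQ1 and 20672 to 21227 with I-BET 762, and the 3 groups did not overlap. The rise was 0.55 with JQ1 (SE 0.04, limma adjusted p = 1e-08) and 0.43 with I-BET 762 (SE 0.05, limma adjusted p = 8.2e-07), just under 1.5-fold with JQ1. In mismatch repair, MSH6, which recognises mismatches, rose by 0.22 and 0.24, and the JQ1 rise did not pass with equal totals (0.04, limma adjusted p = 0.4). MSH6 shares 24.2% of its exon bases with other genes on the opposite strand, mostly FBXO11. PMS2, the nicking subunit, was at -0.10 with JQ1 and fell by 0.14 with I-BET 762 (limma adjusted p = 0.038), a call lost without VEH 14, VEH 15 or any 1 of the I-BET 762 libraries (limma adjusted p from 0.0595 to 0.118). PMS2 passed with JQ1 without JQ1 18 (limma adjusted p = 0.0194) or JQ1 20 (limma adjusted p = 0.0488). Exact copies elsewhere exist for 25.4% of its exon windows, so its counts are uncertain.

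**Figure D4:**
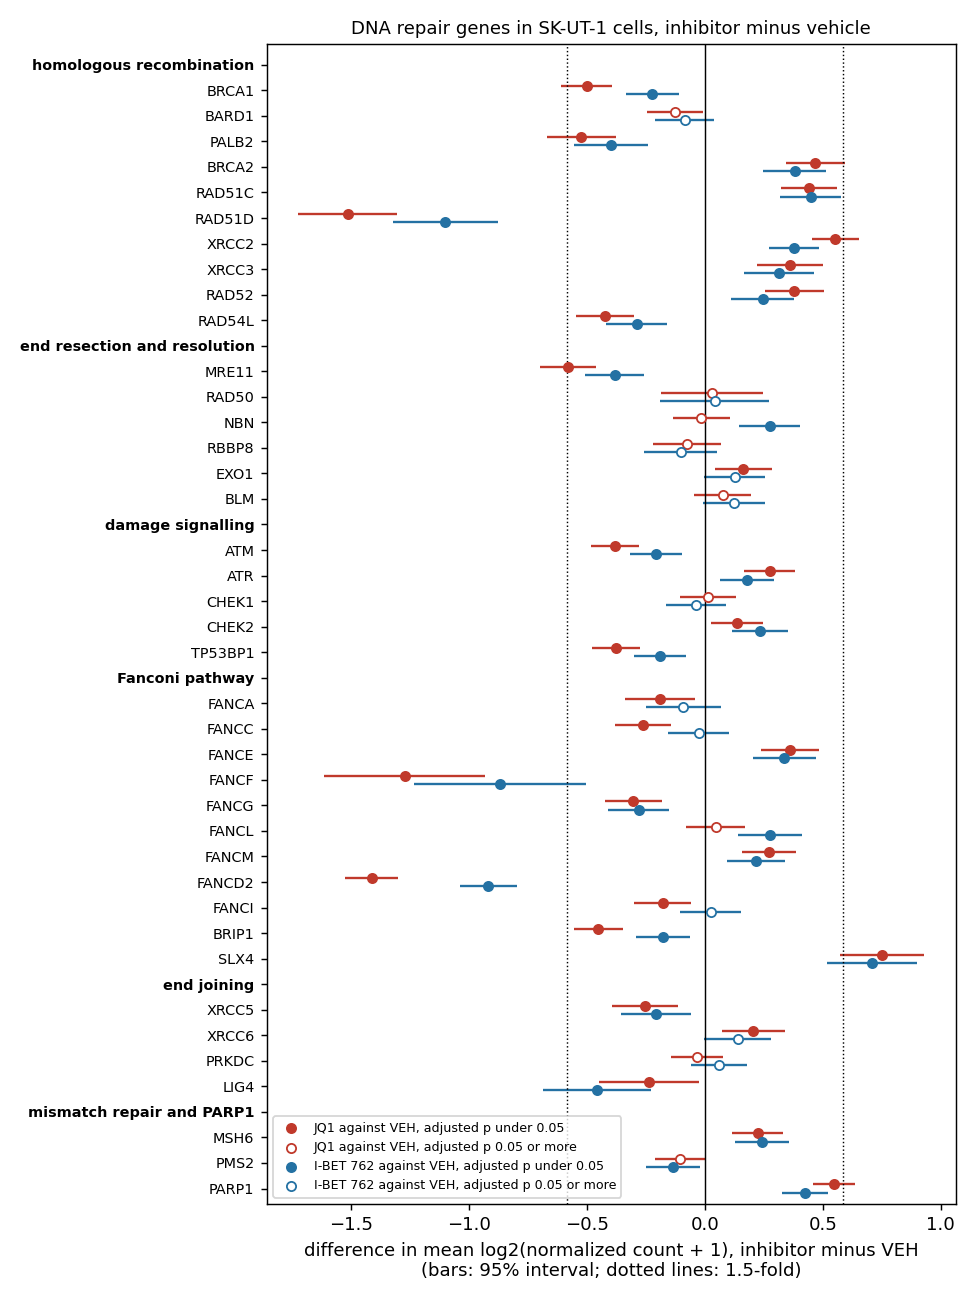
Difference in mean log2(normalized count + 1) between each inhibitor and VEH for the 39 genes, grouped by role, with 95% intervals, filled where the limma adjusted p was under 0.05. The points run from -1.51 (RAD51D with JQ1) to 0.75 (SLX4 with JQ1), and only RAD51D, FANCD2, FANCF and SLX4 lie past the dotted lines at 1.5-fold.

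Across the 2 comparisons, 12 repair genes rose with both inhibitors, 13 fell with both, 8 passed with 1 inhibitor and 6 passed with neither. The matching shares of all genes were not counted. Both comparisons share the VEH libraries, so these counts do not set the repair genes apart. The 6 genes that passed with neither were BARD1, BLM, CHEK1, PRKDC, RAD50 and RBBP8. With equal totals, 5 of these 6 passed downward with JQ1: BARD1 (-0.31, limma adjusted p = 1.4e-05), RBBP8 (-0.26, limma adjusted p = 0.0008), PRKDC (-0.22, limma adjusted p = 0.0029), CHEK1 (-0.17) and BLM (-0.11). NBN did too (-0.20, limma adjusted p = 0.0012), and 6904 of all 14839 genes passed downward with JQ1 under that scaling. A gene that passed with 1 inhibitor is not shown to differ between them by that alone, so JQ1 was also compared with I-BET 762 directly, at the same 5 µM and 48 h.

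In that comparison of 1 pair of compounds, 2 repair genes were higher with JQ1 and 11 lower, and 26 did not pass, where 13.3% of all genes were higher and 14% lower. None of the 39 passed 1.5-fold in limma, where 1.73% of all genes passed upward and 3.59% downward. None passed it in limma-voom either, where 241 of all 14839 genes passed upward and 498 downward. In limma, 17 of the 39 had an unadjusted p under 0.05. FANCD2 and RAD51D, which fell with both, showed the largest direct differences among the genes past the test. FANCD2 was lower with JQ1 by -0.49 (SE 0.05, limma adjusted p = 9.4e-06), RAD51D by -0.41 (SE 0.10, limma adjusted p = 0.0058), BRCA1 by -0.28 (SE 0.05, limma adjusted p = 0.00083) and BRIP1 by -0.27 (SE 0.05, limma adjusted p = 0.00086). MRE11 (-0.20), TP53BP1 (-0.19) and ATM (-0.17) were also lower with JQ1.

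Of the 8 genes that passed with 1 inhibitor, FANCC (-0.24), FANCI (-0.20), NBN (-0.29) and FANCL (-0.23) differed between the inhibitors, all lower with JQ1. EXO1, FANCA, XRCC6 and PMS2 did not, with 95% intervals of -0.08 to 0.16, -0.25 to 0.05, -0.07 to 0.20 and -0.07 to 0.14 on the log2 scale. The 2 genes higher with JQ1 were XRCC2 (0.18, limma adjusted p = 0.011) and PARP1 (0.12, limma adjusted p = 0.043). The PARP1 call was lost when any 1 of 7 libraries was left out (VEH 14, VEH 15, JQ1 17, JQ1 19 and each I-BET 762 library, limma adjusted p from 0.0628 to 0.136).

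Other direct calls also rested on single libraries. That of XRCC2 was lost without I-BET 762 21 (limma adjusted p = 0.0674), MRE11 without I-BET 762 22 (limma adjusted p = 0.0899), FANCL without I-BET 762 23 (limma adjusted p = 0.0702), ATM without I-BET 762 21 or 23 (limma adjusted p = 0.0639 and 0.0823) and FANCI without I-BET 762 21 or 22 (limma adjusted p = 0.0556 and 0.0723). Without JQ1 18 the direct differences of PALB2 (-0.19, limma adjusted p = 0.01), CHEK2 (-0.13, limma adjusted p = 0.0426) and XRCC5 (-0.12, limma adjusted p = 0.0432) passed. Without JQ1 20 those of FANCF (-0.51, limma adjusted p = 0.0229), RAD54L (-0.17, limma adjusted p = 0.0277) and FANCA (-0.17, limma adjusted p = 0.0426) passed.

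For SLX4 the direct difference was 0.04 with a 95% interval of -0.13 to 0.22, for RAD51C -0.01 (-0.13 to 0.11), for MSH6 -0.02 (-0.12 to 0.09) and for BRCA2 0.09 (-0.04 to 0.21), and none of these 4 passed the test, which does not show that the inhibitors act alike on them. FANCF had a wider interval (-0.40, from -0.74 to -0.06, limma adjusted p = 0.076) at its low counts. With equal totals the direct split became 0 higher and 19 lower, where 1002 of all 14839 genes were higher and 3525 lower.

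**Figure D5:**
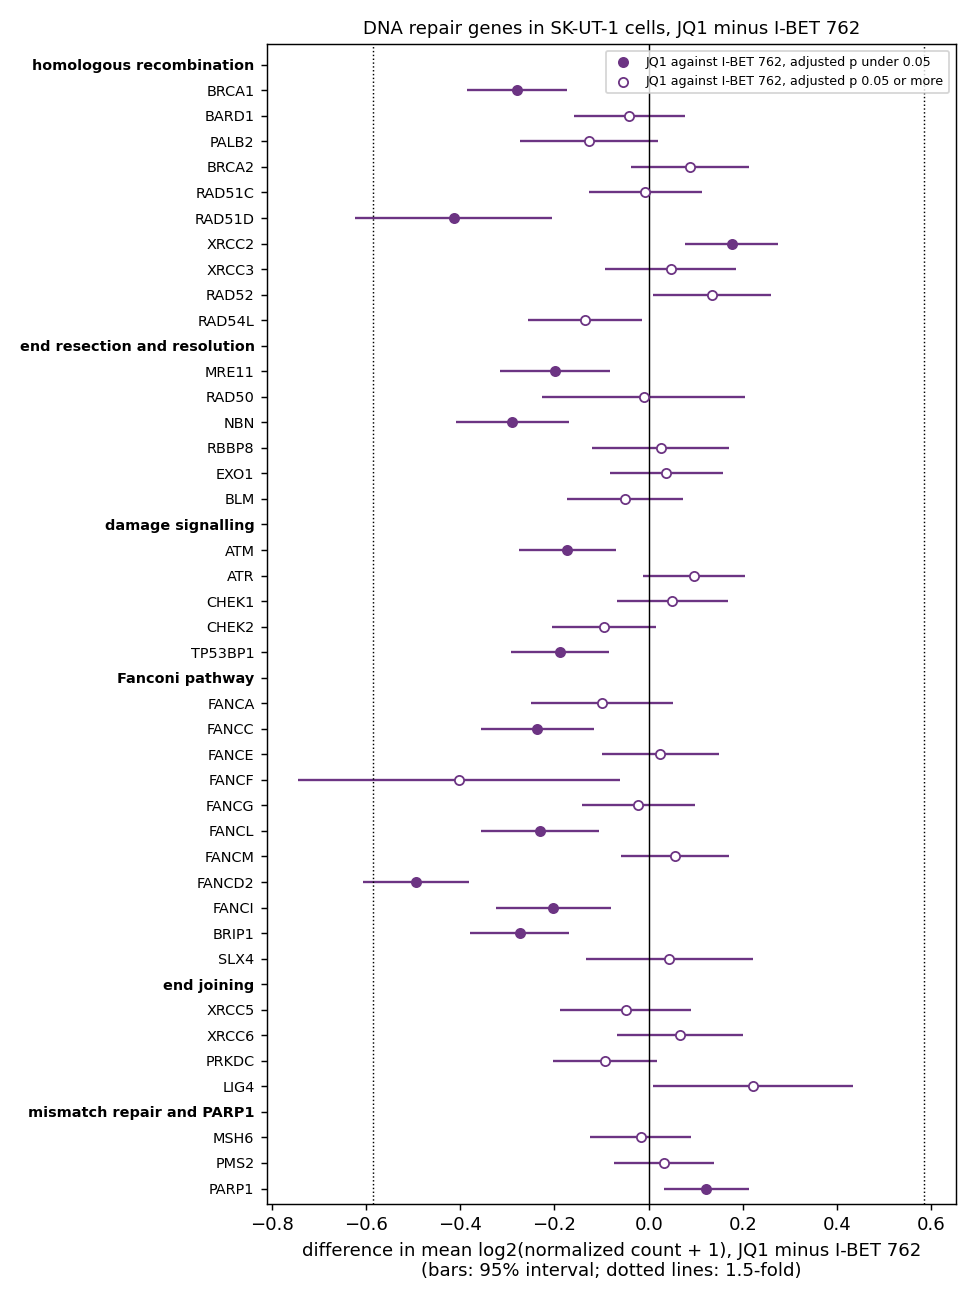
Difference in mean log2(normalized count + 1) between JQ1 and I-BET 762 for the 39 genes, with 95% intervals, filled where the limma adjusted p was under 0.05. The filled points to the left (lower with JQ1) number 11 and those to the right 2, and no point lies past the dotted lines at 1.5-fold.

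Other repair genes that work with these 39 were read from a list of 83, of which 81 were tested. With JQ1, 41 rose and 23 fell, beside 36% and 35.6% of all genes, and the median was 0.16. As DEGs, 9 rose and 13 fell, beside 13.3% and 22.8%. With equal totals, 4 rose and 18 fell as DEGs with JQ1, beside 1222 and 4217 of all 14839 genes. That scaling moved the median of all genes with JQ1 to -0.18, and the split and median of this list were not counted under it. With I-BET 762, 35 rose and 20 fell, beside 29.9% and 31.3%, and the median was 0.12. As DEGs, 5 rose and 8 fell, beside 8.96% and 17.9%. The DEGs with both inhibitors numbered 12, 4 upward and 8 downward, and the matching share of all genes was not counted. The 10 of these 12 with the largest changes are named here.

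Several of them are direct partners of the genes above. XRCC4, the cofactor of LIG4, fell (log2 difference -1.76 with JQ1 and -1.49 with I-BET 762), from 651 ± 71 normalized counts (n = 3) to 191 ± 20.5 (n = 4) and 233 ± 37.7 (n = 3). MUS81, a nuclease that SLX4 binds, fell (-0.83 and -0.74) while SLX4 rose. FAAP24, the partner of FANCM, fell (-0.79 and -0.75). RMI2, a subunit of the BLM dissolution complex, fell (-1.26 and -0.92). SHLD1, a shieldin subunit that acts after TP53BP1, fell (-0.98 and -0.61) at 42.8 to 85.8 normalized counts on average.

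In the BRCA1-A complex, which limits resection, the scaffold ABRAXAS1 rose by 1.03 and 0.96 while BABAM2 fell (-1.22 and -0.92). PARP3, a relative of PARP1 that acts in end joining, fell (-1.76 and -1.38) while PARP1 rose. MSH3, a mismatch recognition protein like MSH6, rose by 0.76 and 0.78, and SMC5, of the SMC5/6 complex at damaged forks, rose by 0.79 and 0.68. Only H2AX, the histone variant phosphorylated by ATM and named after its value was seen, was a DEG between the inhibitors (0.70 higher with JQ1, limma adjusted p = 0.015), and it was none without JQ1 17, JQ1 19 or I-BET 762 21.

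Many repair genes vary over the cell cycle, so cell cycle genes are given beside them, to be read against 36% up and 35.6% down over all genes with JQ1 and 29.9% and 31.3% with I-BET 762. Of 46 S phase and replication genes, 19 rose and 14 fell with JQ1 (median 0.03), and 18 rose and 12 fell with I-BET 762 (median 0.07). Of 28 genes of G2 and mitosis, 2 rose and 19 fell with JQ1 (median -0.36), and 2 rose and 18 fell with I-BET 762 (median -0.28). Their part in the changes of FANCD2, BRCA1 and the other repair genes was not tested, and in these bulk libraries fewer cells in a phase and less RNA per cell cannot be told apart.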

How the data were processed

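RNA from SK-UT-1 cells was sequenced from strand-specific total RNA libraries. Per the submitters' processing notes and methods, the authors trimmed reads with Trimmomatic, aligned them to hg38 with HISAT2 2.2.1, counted them with featureCounts 2.0.3 and normalized them with DESeq2. The authors deposited log2 values of the normalized count plus 1, 1 per gene symbol and library, for 10 of the 12 labelled libraries. Their methods state that outlying samples were removed. Whole reads were recovered from the steps between values (99.7% to 99.8% of values within 0.01 of a whole read in each library, a tolerance that grows in proportion above 1000 reads).

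Genes with a normalized count of at least 10 in at least 3 libraries entered limma 3.58.1 (R 4.3.3), with 1 model over all 10 libraries and an intensity trend, and p-values were adjusted by Benjamini-Hochberg over 14839 genes. DEGs passed an adjusted p of 0.05 and 1.5-fold. Chi-square per gene between replicates was 2.77 to 22.1 over 12 pairs, so none was a duplicate. The method was tested on simulated data in which 200 of 14542 genes changed, alike for both inhibitors. It recovered 196 with JQ1 and 195 with I-BET 762, with 3 and 0 false calls. Far more genes passed in the real data, so this test does not cover the effect of scaling. Recovery of differences under 1.5-fold was not tested on its own, and most calls among the 39 repair genes were that small. Alternatives were other pseudocounts, filters, scalings and thresholds, limma-voom on recovered reads, only the groups compared, and leaving out each library. Overlaps and exact 75-base copies were read from Gencode V44 and hg38, and promoters from RefSeq.

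All 39 genes were named by role, with each library's value for DEGs, and for other repair genes the 10 DEGs of both inhibitors with the largest smaller difference. Members and lists were chosen with earlier results of these data known.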

Additional observations from a re-analysis of the deposited data

Results flagged for a closer look

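In 3 of the 39 repair genes, replicate JQ1 18 lay far from the other JQ1 libraries, by the gap to its nearest neighbour as a share of the range of the 4 libraries. This share was 0.830 for EXO1 (4821 normalized counts in JQ1 18, against 4114 to 4234 in the other 3), 0.853 for XRCC5 (29131 against 23726 to 24518) and 0.866 for XRCC6 (40185 against 33593 to 34477). Chance puts about 1 in 20 such groups past this limit. All 3 genes were highest in JQ1 18. Groups of 3 libraries were not tested.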

How the results depend on the processing

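No paired analysis was possible because no replicate number (13 to 24) occurs in more than 1 group. Of 2220 alternative values of the 39 genes, 58 lost the call, 37 gained one and 4 turned in sign with a call involved. Another 12 moved across 0 without a call by at least the fitted SD of the gene. The other 2109 kept their side of the threshold. They also kept their direction, except for moves across 0 without a call that were smaller than that SD. The 4 that turned were with JQ1 under equal totals: EXO1 (-0.0223), BLM (-0.1103), CHEK1 (-0.1714) and CHEK2 (-0.0479). The cause was not tested.

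With JQ1, the 1 repair gene DEG upward became 0 with equal totals, 14 with no fold threshold and 0 at 2-fold. The 3 downward became 8 with equal totals, 5 with equal upper quartiles, 3 to 5 when 1 library was left out (5 without JQ1 18) and 16 with no fold threshold. With I-BET 762, 1 upward became 14 with no fold threshold and 0 at 2-fold, and 3 downward became 14 and 1. Between the inhibitors, 0 and 0 became 2 upward and 11 downward with no fold threshold. Among other repair genes, the 9 JQ1 DEGs upward became 4 with equal totals. The 1 gene higher with JQ1 than I-BET 762 (H2AX) became 0 with no intensity trend, and 0 to 1 when 1 library was left out (0 without JQ1 17, JQ1 19 or I-BET 762 21). On recovered reads, limma-voom called 14 of the 39 up and 17 down with JQ1, 14 and 14 with I-BET 762, and over all genes 1982 and 3415 DEGs with JQ1. In limma over all 14839 genes, the 3379 JQ1 DEGs downward became 4217 with equal totals and 3650 with equal upper quartiles. The 1979 upward became 1222 with equal totals. FANCF, at 48 to 160 normalized counts, had the largest SE of the 39 genes (0.16 to 0.17).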
